A study of Homo sapiens with 4 samples.

Results

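Integrins and the proteins that link them to actin were followed in RNA that co-purified with the fragile X protein FMRP. The members were the probe sets (groups of array probes that report 1 transcript) whose single gene symbol in the platform annotation named an integrin alpha or beta chain, a talin, vinculin, an alpha-actinin, a tensin, zyxin, paxillin, ILK, PTK2, PARVA or PARVB. They numbered 117 of the 54613 non-control probe sets and covered 40 genes. Of these, 69 probe sets of 36 genes had a log2 signal that averaged at least 4.69 on the 4 arrays, which is where the middle non-control probe set lies, and entered the test. ITGB6, whose probe sets carry a second symbol, was not analysed here.

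Integrins are cell surface receptors made of 1 alpha and 1 beta chain that bind matrix proteins outside the cell. Inside the cell, talin binds the tail of the beta chain and, with vinculin and alpha-actinin, couples the receptor to actin filaments, while tensins take this place in older, fibrillar adhesions. Focal adhesion kinase (PTK2), integrin-linked kinase (ILK), the parvins, paxillin and zyxin make up the signalling and scaffold layers of the adhesion. In kidney-derived epithelial cells these structures hold the cell to the culture dish and to laminin or fibronectin. FMRP is an RNA-binding protein, and its loss causes fragile X syndrome.

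The samples came from a FlpIn T-Rex HEK293 stable line, human embryonic kidney cells with an integrated, doxycycline-inducible transgene, here for FlagHA-tagged FMRP. All cells received doxycycline at 1 µg/ml for 16 h, including those that gave the controls. The 2 lysate samples were total RNA taken before immunoprecipitation (IP), and the 2 IP samples were RNA recovered with anti-FLAG M2 antibody after washes at 300 mM KCl. Each sample was hybridized to 1 Affymetrix human expression array. The tagged protein was made from a transgene in cells that also carry their own FMR1 gene, no mock IP is among these samples, and the labels do not say whether replicates were separate cultures, so p-values measure only the spread between these samples, which may be technical.

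The deposited values were log2 signals with array medians from 4.67 to 4.71. Over the 27307 probe sets tested, which are not independent replicates, replicate arrays correlated at 0.992 (lysate) and 0.990 (IP; both Pearson's r), and arrays of unlike groups at 0.875 to 0.904. Among the 69 members tested, the lysate arrays differed by a median of 0.17 and the IP arrays by a median of 0.15, with largest differences of 0.54 and 0.86. Of 10 genes listed as HEK293 markers, 9 had a probe set past the filter, and the exception was NEFM. CDH2, KRT18 and KRT8 of this list were higher in the IP and INA was lower.

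The comparison asked which of these mRNAs the FMRP IP held in excess of the lysate and which it lacked. More of the tested members were higher in the IP than lower. Of 69 probe sets, 40 (58.0%) were higher, 7 (10.1%) were lower and 22 were not called (limma, Benjamini-Hochberg adjusted p of at most 0.05 over all probe sets tested). Over all 27307 probe sets tested, 31.5% were higher and 27.9% were lower, 59.4% together. The members' median change, IP mean minus lysate mean on the log2 scale, was 0.66 with an interquartile range of -0.01 to 1.17, and that of all probe sets was 0.05. By the probe set with the highest mean of each gene, 21 of 36 genes were higher and 2 lower in a fit over 13165 genes, of which 35.0% were higher and 28.8% lower (63.8% together). Both samples are bulk RNA, so a change carried by some of the cells and a smaller change in all of them cannot be told apart.

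The size and the balance of these changes depend on how the arrays are set to each other. The hybridization controls, control RNAs added at the hybridization step, lay 0.48 higher on the IP arrays. They do not measure how much RNA was recovered. With each array centred on them, the median of all probe sets tested moved from 0.05 to -0.42, the members' median from 0.66 to 0.18, and 23 members were higher and 18 lower, where 13.8% and 48.3% of all probe sets were (62.1% together). Every change given is therefore relative to the other probe sets, and values with this centring are given by role. The IP and lysate arrays did not overlap for 47 members that were higher and 13 that were lower, together 87.0% of those tested, beside 80.2% of all probe sets (42.7% higher and 37.4% lower). Among the members 22 rose at least 2-fold and 3 fell at least 2-fold, where 11.6% and 12.7% of all probe sets did. Of the 69, 4 passed the filter only through their IP level and 2 only through their lysate level. The 65 whose lysate mean was past the filter held 36 higher and 7 lower, a count added once the values were known. Over all probe sets, 26389 had a lysate mean past the filter, of which 8037 were higher and 7629 lower. With no filter, 39 of the 117 members were higher and 7 lower, beside 14.5% and 14.1% of all probe sets (28.7% together), and the members' median was 0.28. Among probe sets whose name carries no a, s or x mark, here called unique, 23 members were higher and 4 lower. Of all unique ones 30.2% and 27.6% were (57.8% together). The members with such a mark held 17 higher and 3 lower in the fit of all probe sets tested, with 2 of ITGB1 among the lower. Of all marked probe sets 32.6% and 28.0% were higher and lower.

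**Figure D1:**
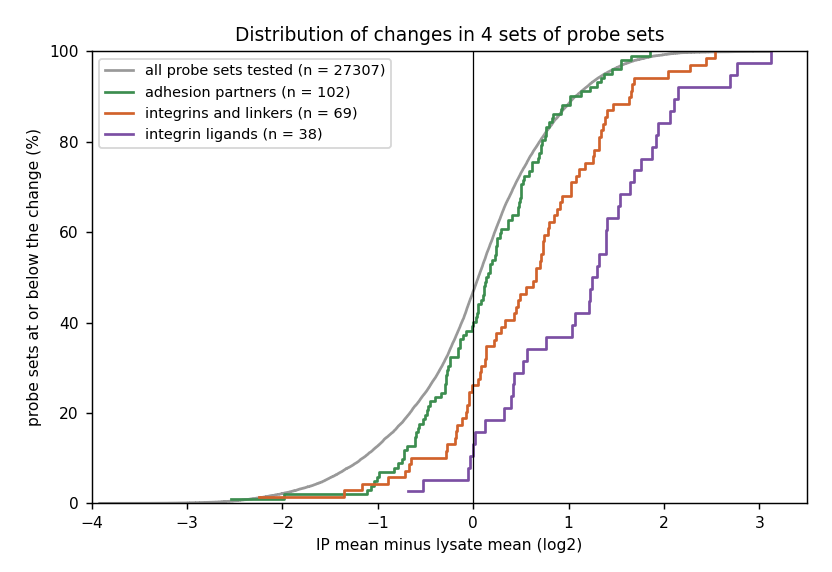
Cumulative share of probe sets (vertical axis, percent) at or below a given change, IP mean minus lysate mean on the log2 scale (horizontal axis), for all 27307 probe sets tested, 102 of the adhesion partners, the 69 integrin and linker probe sets and 38 of the integrin ligands. The medians were 0.05, 0.15, 0.66 and 1.27, and with hybridization control centring -0.42, -0.33, 0.18 and 0.79, so the partners' median turned below 0.

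More alpha integrin probe sets were higher in the IP than lower, and ITGAE fell by a large amount. Of 22 tested, 14 rose (63.6%) and 2 fell (9.09%), beside 31.5% and 27.9% of all probe sets, with a median change of 0.81. With hybridization control centring the median was 0.33, and 10 were higher and 5 lower, beside 13.8% and 48.3% of all. ITGA5, the alpha chain of the classical fibronectin receptor, stood at 7.39 and 7.52 on the lysate arrays and at 9.08 and 9.20 on the IP arrays. Both IP arrays were above both lysate arrays, and the ITGA5 rise was 3.21-fold (1.68 on the log2 scale, 95% interval 1.39 to 1.98, limma adjusted p = 0.000117). ITGA9, whose product binds tenascin and other ligands, was at 4.64 and 4.76 in the lysate and at 6.39 and 6.33 in the IP, a change of 1.66 (adjusted p = 0.000116). Its probe set with the next highest mean stood 1.00 higher in the IP but was below the filter and untested.

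ITGA2, ITGA7 and ITGA8 rose by 2-fold or more on their probe sets with the highest mean. ITGA2, a collagen receptor chain, was at 7.34 and 6.81 in the lysate and at 8.42 and 8.45 in the IP, 2.57-fold higher (adjusted p = 0.000748), and its other tested probe set changed by 1.17. ITGA7, a laminin receptor chain known from muscle, was at 7.42 and 7.80 against 8.75 and 8.68, 2.15-fold higher, and its other probe set changed by 1.02. ITGA8, an RGD-binding receptor chain needed for kidney development, was at 7.62 and 7.51 against 8.87 and 8.79, 2.41-fold higher (adjusted p = 0.000207). Of its other tested probe sets, 2 rose by 1.25 and 1.07 and the remaining one, which can cross-hybridize, changed by 0.13 with overlapping arrays. In all 3 of these genes both IP values of the probe set with the highest mean lay above both lysate values.

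ITGA3, ITGA4 and ITGA1 also rose, and their probe sets with the highest mean lost the call with hybridization control centring. ITGA3, a laminin receptor chain, was at 5.10 and 5.13 in the lysate and at 6.03 and 5.95 in the IP, a change of 0.88 (adjusted p = 0.000745; 0.40 with that centring). ITGA4, a chain of receptors for fibronectin and VCAM1, was at 7.45 and 7.37 against 8.22 and 7.86, a change of 0.63 (adjusted p = 0.0108; 0.15 with that centring), which did not pass without lysate replicate 2 (0.59). Its other tested probe sets rose by 0.73 (0.25 and not called with that centring) and 1.46 (0.98 and still higher), the latter from a lysate mean of 4.19 below the filter, so that it entered the test through its IP level. ITGA1, a collagen receptor chain, was at 5.17 and 5.35 against 5.93 and 5.69, a change of 0.55 (adjusted p = 0.0136; 0.07 with that centring), and lost its call when lysate replicate 1 (0.46) or IP replicate 1 (0.43) was left out and with no filter. The arrays did not overlap for these probe sets of ITGA3, ITGA4 and ITGA1.

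ITGAE, the chain that pairs with ITGB7 to bind E-cadherin in intraepithelial T cells, was the member with the largest fall. Its only probe set was at 10.65 and 10.42 in the lysate and at 8.67 and 7.92 in the IP. The lysate signal was 4.73-fold higher (log2 change -2.24, 95% interval -2.82 to -1.66, adjusted p = 0.00031). The IP arrays stood further apart than those of most members, and the change came to -1.87 with IP replicate 2 left out and -2.62 with IP replicate 1 left out. In the GRCh38.p14 gene table the ITGAE gene overlaps HASPIN and P2RX5, and 11 of the 40 member genes overlap another protein-coding gene. Among them are ITGA1, ITGA4, ITGA7, VCL, ACTN4, ILK and TNS2, which rose. The list also holds ITGB4, ITGB7 and ZYX, not called on their probe sets with the highest mean. Whether any of these probe sets also reports the overlapping transcripts was not tested.

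The laminin receptor chain ITGA6 and the vitronectin receptor chain ITGAV did not follow the rise. ITGAV was at 8.80 and 8.67 in the lysate and at 8.92 and 8.82 in the IP, a change of 0.14 with an interval of -0.16 to 0.43 (adjusted p = 0.385), which was -0.34 with hybridization control centring. ITGA6 was at 7.09 and 7.06 against 6.97 and 7.05, a change of -0.07 (interval -0.35 to 0.21, adjusted p = 0.65), while its other probe set was lower at -0.72 (5.75 and 6.09 against 4.98 and 5.42, adjusted p = 0.0151). With hybridization control centring both ITGA6 probe sets were lower, at -0.55 and -1.20. The collagen receptor chain ITGA11 was at 5.06 and 4.86 against 4.72 and 4.84 (change -0.18, adjusted p = 0.288), with a second probe set at 0.07, and the leukocyte chain ITGAM at 4.74 and 4.96 against 4.65 and 4.90 (change -0.08, adjusted p = 0.683). These 2 probe sets lie near the array medians, and they were called lower with hybridization control centring, at -0.66 and -0.55.

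**Figure D2:**
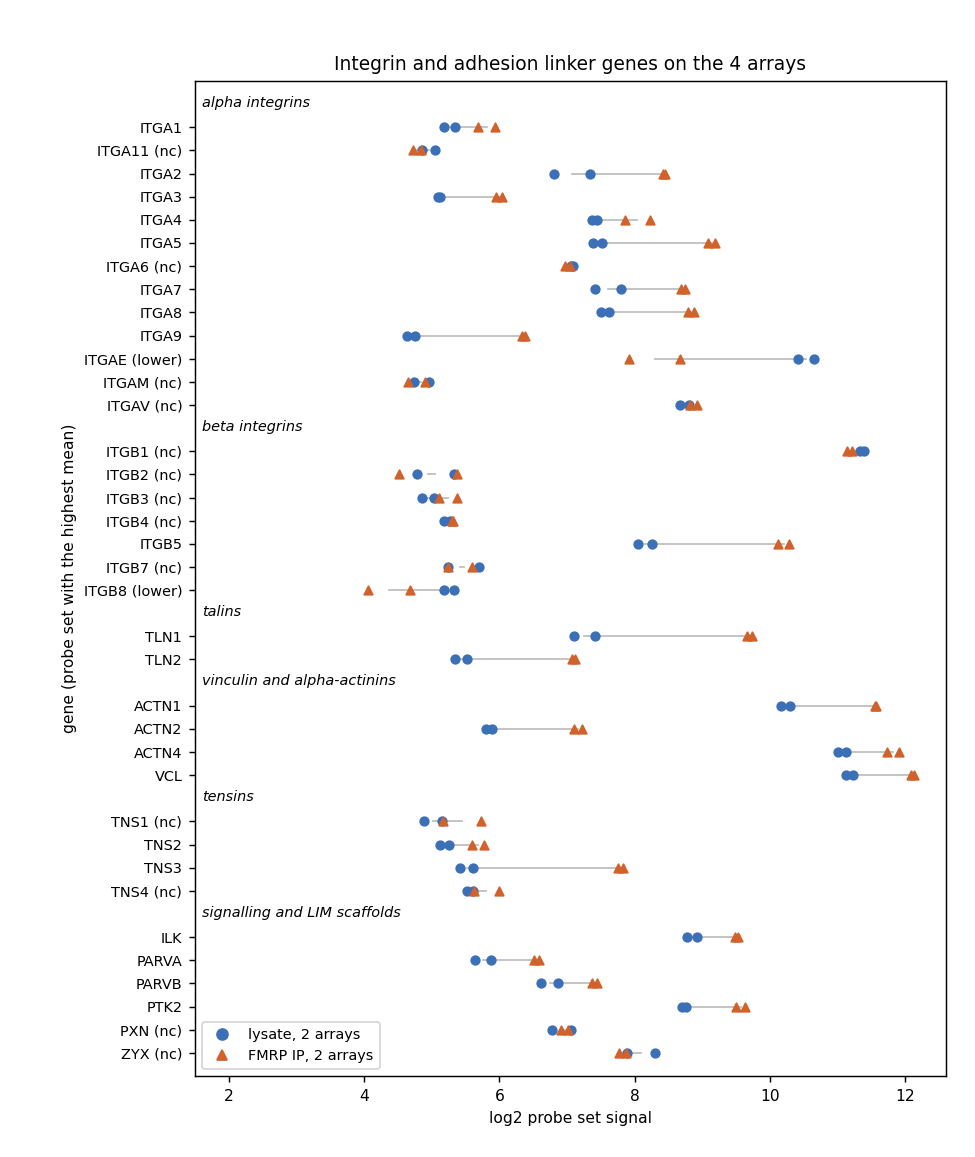
Log2 signal (horizontal axis) on each of the 4 arrays for the probe set with the highest mean of the 36 genes tested (vertical axis, by role): circles are the 2 lysate arrays, triangles the 2 IP arrays, and a grey line joins the group means. Genes marked (nc) were not called and those marked (lower) were lower, which were ITGAE and ITGB8. These marks come from the probe set fit. In the separate fit of 1 probe set per gene with hybridization control centring, 14 of the 36 genes were higher and 9 lower. Of all 13165 genes in that fit, 2090 were higher and 6388 lower. Calls can differ between the fits. Signals of different probe sets are not on a common scale of abundance.

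Beta integrin mRNAs split by chain. Of 13 tested probe sets, 5 were higher (38.5%), 3 lower (23.1%) and 5 not called, near the 31.5% and 27.9% of all probe sets. The median change of 0.08 turned to -0.40 with hybridization control centring, where 3 were higher and 5 lower, beside 13.8% and 48.3% of all. ITGB5, which pairs with ITGAV in a vitronectin receptor, accounted for 4 of the 5 higher probe sets. Its probe set with the highest mean was at 8.26 and 8.05 in the lysate and at 10.12 and 10.29 in the IP, 4.13-fold higher (log2 change 2.05, 95% interval 1.72 to 2.37, adjusted p = 0.000112). The other ITGB5 probe sets changed by 2.54, 1.03 and 0.71, and the last did not pass with hybridization control centring (0.24). Those at 2.54 and 0.71 can cross-hybridize. The intervals of the changes at 2.54 (2.18 to 2.90) and 1.03 (0.74 to 1.32) did not overlap, so the probe sets of ITGB5 share a direction and not a size.

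ITGB1, the common partner of most alpha chains, did not rise. Its brightest probe set was at 11.39 and 11.33 in the lysate and at 11.22 and 11.15 in the IP, a change of -0.17 with an interval of -0.46 to 0.11 (adjusted p = 0.248), and it was lower at -0.65 with hybridization control centring. A further pair of probe sets fell: the first, at 9.00 and 8.81 against 8.35 and 8.16, by 0.65 on the log2 scale (adjusted p = 0.00573). The second, at 8.81 and 8.53 against 7.60 and 7.40, fell by 1.17 (adjusted p = 0.000599). In all 3 the IP arrays lay below the lysate arrays. The remaining 4 ITGB1 probe sets lay between 1.95 and 2.69 on every array and were not tested.

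ITGB8, which pairs with ITGAV to activate latent TGF-beta, was the other gene to fall on its brightest probe set. It was at 5.34 and 5.18 in the lysate and at 4.68 and 4.06 in the IP (change -0.89, adjusted p = 0.00908), a call lost without lysate replicate 1 (-0.81), while leaving out IP replicate 2 gave -0.58. Its IP mean of 4.37 was below the filter, so ITGB8 was tested through its lysate level only. The hemidesmosome chain ITGB4 was at 5.27 and 5.19 against 5.32 and 5.30 (change 0.08, adjusted p = 0.576; -0.40 with hybridization control centring), while its other tested probe set, at 4.92 and 4.60 against 5.48 and 5.61, rose by 0.79 (adjusted p = 0.00347; 0.31 and not called with that centring). ITGB3, the platelet and vitronectin receptor chain, was at 5.03 and 4.86 against 5.10 and 5.38, a change of 0.30 (adjusted p = 0.122) that was -0.18 with hybridization control centring. The arrays of the 2 groups interleaved for the leukocyte chains: ITGB2 was at 5.32 and 4.79 against 4.51 and 5.37 (change -0.11, adjusted p = 0.768), and ITGB7 at 5.24 and 5.70 against 5.25 and 5.60 (change -0.05, adjusted p = 0.849). ITGB7 was lower with hybridization control centring, at -0.53. The ITGB2 probe set can cross-hybridize.

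In some receptors the chains had unlike values. In the fibronectin receptor ITGA5 changed by 1.68 and the brightest ITGB1 probe set by -0.17, and in the vitronectin receptor ITGAV changed by 0.14 and ITGB5 by 2.05. ITGAE changed by -2.24 and its partner ITGB7 by -0.05. Other pairs lay closer together by their probe sets with the highest mean, such as ITGA6 (-0.07) with ITGB4 (0.08) and ITGAV with ITGB3 (0.30). No test of the difference between the chains was made.

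Talin mRNAs gave some of the largest rises, and TLN1 the widest disagreement between probe sets. Of 4 tested talin probe sets 3 were higher and 1 lower, beside 31.5% and 27.9% of all probe sets. The talin median of 1.65 was 1.17 with hybridization control centring. With that centring 3 were higher and 1 lower, beside 13.8% and 48.3% of all. The probe set of TLN1 with the highest mean was at 7.10 and 7.42 in the lysate and at 9.66 and 9.74 in the IP, 5.43-fold higher (log2 change 2.44, 95% interval 2.09 to 2.79, adjusted p = 0.000112). A second TLN1 probe set ran the other way, at 5.32 and 5.46 in the lysate and 4.56 and 4.88 in the IP (change -0.67, interval -1.02 to -0.31, adjusted p = 0.00729). Both directions were without overlap between the arrays. With hybridization control centring these TLN1 changes were 1.96 and -1.15, still called higher and lower. The third TLN1 probe set, at 4.57 and 3.77 against 4.19 and 4.54, had overlapping arrays and was below the filter. The rising probe set was designed from a RefSeq mRNA record and the others were designed from other sequence records. TLN2, encoding the talin paralog abundant in brain and heart, was at 5.35 and 5.52 against 7.12 and 7.07, 3.17-fold higher (adjusted p = 0.00012), and its other tested probe set rose by 1.63.

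Vinculin and alpha-actinin mRNAs were higher on 7 of 8 tested probe sets (87.5%) and lower on none, beside 31.5% and 27.9% of all probe sets. Their median was 1.12, and 0.65 with hybridization control centring. With that centring 5 were higher and 1 lower, beside 13.8% and 48.3% of all. VCL, encoding vinculin, was at 11.13 and 11.22 in the lysate and at 12.13 and 12.09 in the IP, 1.91-fold higher (log2 change 0.93, interval 0.65 to 1.22, adjusted p = 0.000605). ACTN1, a non-muscle actin crosslinker, was at 10.16 and 10.30 against 11.56 and 11.57, 2.52-fold higher (adjusted p = 0.00018). The remaining ACTN1 probe sets gave 1.41, 1.38 and -0.04, the last with overlapping arrays and called lower with hybridization control centring (-0.52). Those at 1.41 and 1.38 can cross-hybridize. ACTN2, the muscle isoform of the crosslinker, was at 5.80 and 5.89 against 7.10 and 7.22, 2.49-fold higher (adjusted p = 0.00019), and its other tested probe set rose by 0.91 (0.43 and not called with hybridization control centring) from a lysate mean of 4.37 below the filter, through its IP level only. ACTN4, the second non-muscle isoform, known for its role in kidney podocytes, was at 11.12 and 11.01 against 11.90 and 11.73, 1.68-fold higher (adjusted p = 0.00229), and did not pass with hybridization control centring (0.27). For the probe sets with the highest mean of these 4 genes, both IP arrays were above both lysate arrays.

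Among the tensins, TNS3 rose most. TNS3 was at 5.42 and 5.61 in the lysate and at 7.75 and 7.83 in the IP, 4.85-fold higher (log2 change 2.28, interval 1.97 to 2.58, adjusted p = 0.000112); a second probe set was below the filter and lay lower in the IP, untested. TNS2 was at 5.26 and 5.13 against 5.60 and 5.78, a change of 0.50 (adjusted p = 0.0146). The TNS2 rise did not pass without lysate replicate 2 (0.43), without IP replicate 2 (0.41), with no filter, or with hybridization control centring (0.02). TNS1 gave unlike values: its probe set with the highest mean, at 5.15 and 4.89 against 5.72 and 5.16, changed by 0.42 (adjusted p = 0.115). Without IP replicate 2 this TNS1 change passed (0.71), and this probe set can cross-hybridize. The second, at 5.06 and 5.03 against 4.77 and 4.93, changed by -0.19 (adjusted p = 0.22; -0.67 and lower with hybridization control centring), and the third, at 4.14 and 4.35 against 5.80 and 5.31, rose by 1.32 (adjusted p = 0.000902) from a lysate mean of 4.24 below the filter, so it was tested through its IP level only. TNS4, an epithelial tensin without the actin-binding part, was at 5.52 and 5.61 against 5.63 and 5.99, a change of 0.24 (adjusted p = 0.214). Of the 6 tested tensin probe sets 3 were higher and 0 lower, beside 31.5% and 27.9% of all probe sets. With hybridization control centring 2 were higher and 1 lower, beside 13.8% and 48.3% of all. With that centring the tensin median turned from 0.46 to -0.02, and the values of TNS1 and TNS4 turned to -0.05 and -0.24.

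**Figure D3:**
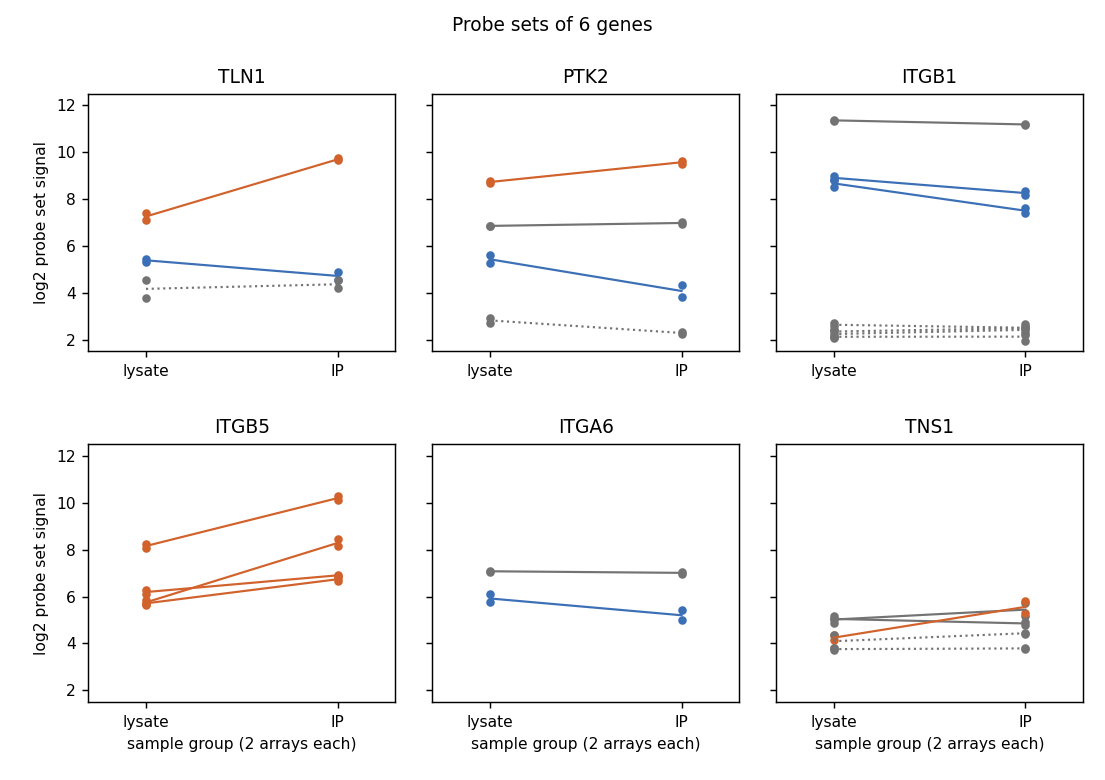
Log2 signal (vertical axis) in the lysate and the IP for every probe set of TLN1, PTK2, ITGB1, ITGB5, ITGA6 and TNS1: points are arrays and lines join group means, orange for probe sets called higher, blue for lower, grey for not called, dotted for those below the filter. TLN1 and PTK2 have lines in both colours; with hybridization control centring the rise of PTK2 was not called.

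Signalling and LIM scaffold mRNAs rose by less than 2-fold where they rose. Of 16 tested probe sets, 8 were higher and 1 lower (50.0% and 6.25%), beside 31.5% and 27.9% of all probe sets. The median of 0.39 turned to -0.09 with hybridization control centring. With that centring none was higher and 5 were lower, where 13.8% and 48.3% of all probe sets were. ILK, which bridges beta chains to the parvins, was at 8.77 and 8.92 in the lysate and at 9.52 and 9.49 in the IP, 1.58-fold higher (log2 change 0.66, interval 0.36 to 0.95, adjusted p = 0.00333). PARVB, encoding an actin-binding parvin, was at 6.62 and 6.87 against 7.36 and 7.45, 1.58-fold higher (adjusted p = 0.00512), and its other tested probe sets changed by 0.73, 0.70, 0.47 and 0.34, the last not called (adjusted p = 0.0595). PARVA, its paralog, was at 5.63 and 5.88 against 6.51 and 6.59, 1.73-fold higher (adjusted p = 0.00221). Its other tested probe sets changed by 0.45 (adjusted p = 0.04), -0.01 and -0.29, of which only the first was called. That probe set entered the test through its IP level only (lysate mean 4.57), and its call was lost with no filter (adjusted p = 0.119) and with hybridization control centring (-0.03). With that centring the calls of ILK (0.18), of the brightest PARVA probe set (0.31) and of the 4 higher PARVB probe sets (-0.01 to 0.25) were lost, and the PARVA probe sets at -0.01 and -0.29 were called lower, at -0.49 and -0.76.

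PTK2, focal adhesion kinase, was the other gene with calls in both directions. Its probe set with the highest mean was at 8.70 and 8.76 in the lysate and at 9.50 and 9.64 in the IP, a rise of 0.84 (interval 0.55 to 1.14, adjusted p = 0.00106), which did not pass with hybridization control centring (0.36). A second PTK2 probe set, at 6.86 and 6.85 against 6.95 and 7.01, changed by 0.13 (adjusted p = 0.393; -0.35 with that centring). The third, at 5.25 and 5.61 against 4.35 and 3.80, was lower at -1.35 (interval -1.86 to -0.85, adjusted p = 0.00146), and its IP mean of 4.08 was below the filter. The scaffold genes paxillin and zyxin were not called, and the zyxin probe set with the highest mean can cross-hybridize. PXN was at 6.78 and 7.06 against 6.91 and 7.02, a change of 0.05 with overlapping arrays (interval -0.29 to 0.39, adjusted p = 0.801) that was lower at -0.43 with hybridization control centring. ZYX was at 7.88 and 8.29 against 7.77 and 7.87 (change -0.27, interval -0.66 to 0.12, adjusted p = 0.197; -0.75 and lower with that centring), and its other probe set gave 0.22 (-0.26 with that centring).

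Probe sets of the same gene were compared for the 18 genes with more than 1 tested. All tested probe sets were higher in 6 of these genes, some were called and some not in 8, none was called in 2, and 2 (11.1%), TLN1 and PTK2, had calls in both directions. Over all 6251 genes with more than 1 tested probe set, 299 (4.78%) had calls in both directions, and whether the members' share differs was not tested. The other classes were not counted over all genes, so the members' counts in them have no background. The median gap between the highest and the lowest change of a gene was 0.77 in the members and 0.53 over all such genes. By the record a probe set was designed from, of 18 members from a RefSeq mRNA record 10 were higher and 2 lower (55.6% and 11.1%). Of 51 from other records 30 were higher and 5 lower (58.8% and 9.80%). Of all tested probe sets, 35.3% and 27.5% were higher and lower for RefSeq mRNA records, and 30.3% and 28.1% for other records. With hybridization control centring the genes with calls in both directions were TLN1, ACTN1 and TNS1.

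**Figure D4:**
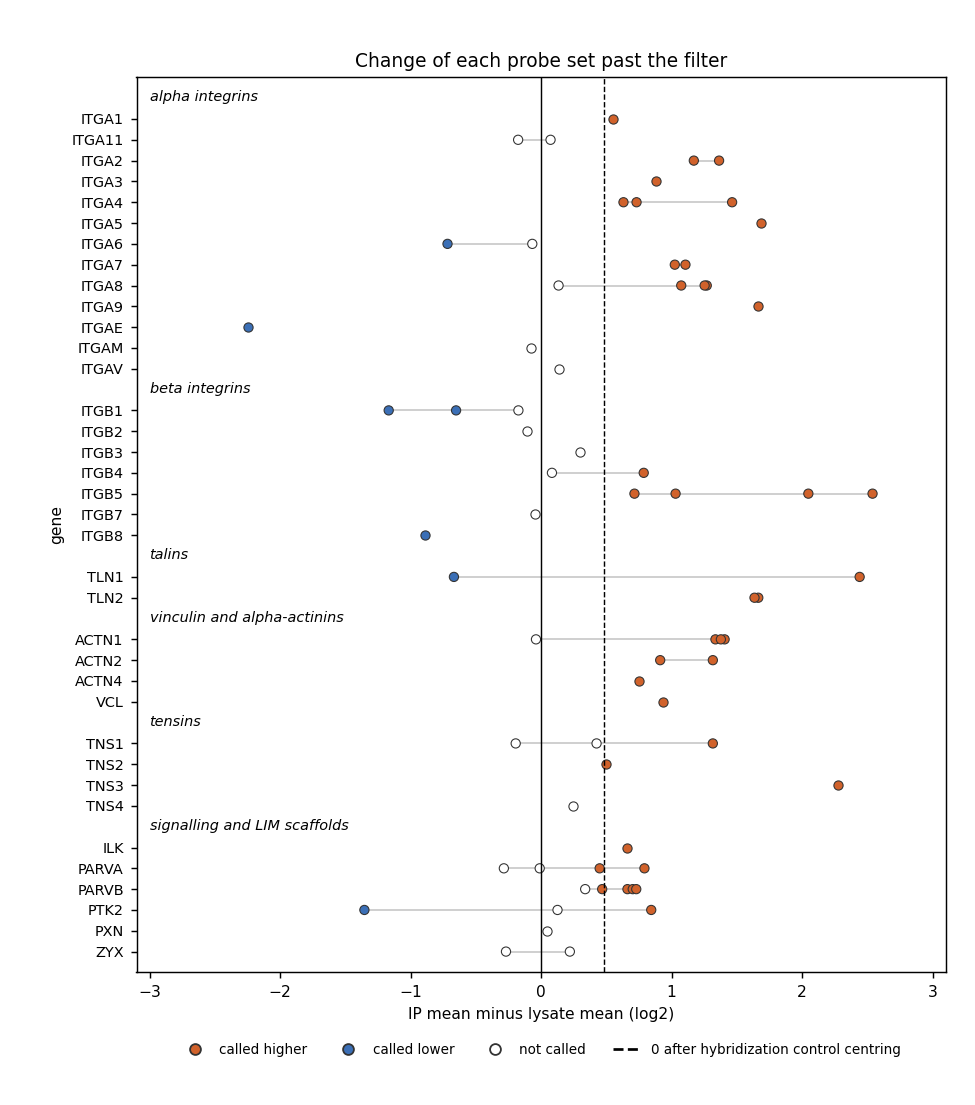
Change, IP mean minus lysate mean on the log2 scale (horizontal axis), of each of the 69 tested probe sets by gene (vertical axis): orange points were called higher, blue lower and white not called, and a grey line spans the probe sets of a gene. The dashed line at 0.48 marks 0 after hybridization control centring; TLN1 spans from -0.67 to 2.44, the widest range among these genes.

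The other genes of the adhesion pathway held calls in both directions. Of 52 listed adhesion partners, adaptors, kinases and LIM proteins that are not members, 46 had a tested probe set. Of their 102 probe sets 37 were higher and 23 lower (36.3% and 22.5%, beside 31.5% and 27.9% of all). Their median of 0.15 turned to -0.33 with hybridization control centring, where 14 were higher and 43 lower, beside 13.8% and 48.3% of all. NEXN, an actin-binding protein of adhesions and muscle, was at 5.37 and 4.67 in the lysate and at 6.80 and 6.54 in the IP, a change of 1.65 (adjusted p = 0.000895). DOCK1, an activator of the GTPase RAC, changed by 1.45 and ARHGEF7, an exchange factor that sits at adhesions with GIT proteins, by 1.37. The GTPase genes whose products help recruit talin to integrins fell. RAP1A was at 10.15 and 10.17 against 7.70 and 7.53, a lysate signal 5.83-fold higher (adjusted p = 0.000112), and RAP1B was at 11.11 and 11.04 against 9.32 and 8.86, 3.95-fold higher in the lysate (adjusted p = 0.000152). PTPN12, a phosphatase that acts on adhesion proteins, fell by 1.11 on the log2 scale.

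Integrin ligand mRNAs were higher on most probe sets. Of 26 listed matrix and surface ligands, 19 had a tested probe set. Of their 38 probe sets 30 rose and 2 fell (78.9% and 5.26%, beside 31.5% and 27.9% of all probe sets). Their median was 1.27, and 0.79 with hybridization control centring. With that centring 24 were higher and 6 lower, beside 13.8% and 48.3% of all. The count of lower ligand probe sets was 0 with lysate replicate 2 left out and 1 with either lysate replicate 1 or IP replicate 2 left out. FBN1, encoding the microfibril protein fibrillin, was at 6.46 and 6.50 in the lysate and at 9.16 and 9.18 in the IP, 6.47-fold higher (adjusted p = 0.000112). TNC, encoding tenascin, was at 7.07 and 7.17 against 9.27 and 9.25, 4.42-fold higher (adjusted p = 0.000112), and LAMA1, encoding a laminin chain, changed by 2.10. ICAM1, a ligand of leukocyte integrins that was tested through its lysate level only (IP mean 4.46), was lower at 5.04 and 5.24 against 4.66 and 4.25 (change -0.68, adjusted p = 0.0113), and it did not pass without lysate replicate 2 (-0.58).

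Integrin chains best known from lymphocytes and myeloid cells were near or below the middle of the arrays, apart from ITGAE and ITGA4. ITGAL, of lymphocytes, lay between 2.47 and 4.90 on all arrays and probe sets and ITGAX, of myeloid cells, between 2.77 and 4.75; neither entered the test, nor did ITGA10, between 4.13 and 4.89, and ACTN3, between 4.12 and 4.71. Of 7 leukocyte markers measured, ITGAM and ITGB2, themselves members, passed the filter and none was called, and the summed linear signal of the list was 151 to 162 in the lysate and 143 to 182 in the IP. Of the markers of other cell types, 3 of 4 platelet and red cell genes, 2 of 4 endothelial, 1 of 4 muscle and 3 of 5 fibroblast genes passed the filter. Of these PECAM1 and PDGFRA were higher and none was lower. The summed linear signal of the fibroblast list was 216 to 233 in the lysate and 302 to 318 in the IP, that of the endothelial list 77.5 to 83.8 and 85.6 to 95.9, and that of the muscle list 87.8 to 99.5 and 105 to 116, while the platelet and red cell list overlapped. Their part in the members' values was not tested.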

How the data were processed

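Per the labels' protocols, 2 µg of RNA per sample was biotin-labelled and hybridized to 1 array. The authors deposited 1 log2 signal per probe set and array (the log2 scale was inferred from the range of values), and how they corrected, summarised and normalized the arrays is not stated by the sources used here. Gene names came from the platform annotation (41091 probe sets with 1 symbol, 1801 with several, 11721 with none, 62 controls). All 40 member genes matched the GRCh38.p14 gene table through the Entrez number; it was used for names and overlapping genes only.

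The difference of IP and lysate was estimated by lmFit and eBayes (limma 3.58.1, R 4.3.3) without covariates and with 2 residual and 4.82 prior degrees of freedom over the 27307 non-control probe sets with a mean of at least 4.69, with Benjamini-Hochberg adjustment and a threshold of 0.05; a second fit used 1 probe set per gene. The script was tested on simulated data. Figures used matplotlib 3.10.9 and pandas 2.3.3. The arrays' number limits the precision, and no detection calls were used, so low values have no known floor.

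The members and lists were chosen with earlier results of these data known. Every tested member gene is named, with its probe set of highest mean on every array; of the partner and ligand lists, up to 3 genes with the largest change in each direction, by the probe set of highest mean of each gene, are named; other probe sets in those lists changed by more. Lists of HEK293, leukocyte, platelet and red cell, endothelial, muscle and fibroblast markers were checked. Alternatives covered normalization, centring, the filter, the unit of the fit, the probe set class, the spread estimate, the threshold, the replicate number as a block and leaving out each array. A planned comparison with protein length was not run. No sequence is shown. Some genes that the choice of members covers are not reported here.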

Additional observations from a re-analysis of the deposited data

How the results depend on the processing

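With each array centred on its hybridization controls the members had 23 higher and 18 lower probe sets (median 0.18), the partners 14 and 43, the ligands 24 and 6, all probe sets 3762 and 13182, and 9 member genes were lower. The filter at the upper quartile (6.96) left 18 higher and 3 lower members (median 0.80), 13 and 1 member genes, 23 and 13 partner probe sets, 0 lower ligand probe sets, 4840 lower probe sets in all and 0 genes with calls in both directions, since fewer were tested. With 1 probe set per gene the counts were 21 and 2 for members, 20 and 12 for partners, 17 and 1 for ligands and 4611 and 3791 in all; with the mean of a gene's probe sets they were 21 and 4 (median 0.53), 21 and 7, 16 and 1, and 4532 and 3877. With unique probe sets they were 23 and 4 (median 0.59), 18 and 13, 13 and 0, and 4827 and 4405, and 1 gene, PTK2, had calls in both directions. With RefSeq probe sets, an alternative chosen after seeing the data, 10 members were higher and 2 lower (median 0.56). With no filter the members' median was 0.28 and 1 ligand probe set was lower; with quantile normalization the median was 0.62; with median centring 1 ligand probe set was lower; at an adjusted p of 0.01, 15 partner and 0 ligand probe sets were lower.

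Leaving out 1 array gave 37 to 39 higher and 6 to 7 lower members, a median of 0.56 to 0.67, 20 to 23 higher and 2 to 3 lower member genes, 26 to 36 and 17 to 24 partner probe sets, 27 to 29 and 0 to 2 ligand probe sets, 7122 to 8221 and 6444 to 7339 in all, and 2 genes with calls in both directions. The lower ligand probe sets numbered 1 without lysate replicate 1, 0 without lysate replicate 2 and 1 without IP replicate 2. The replicate number as a block gave 41 higher and 7 lower members; lysate and IP arrays of the same number shared little, with a correlation of 0.06 across probe sets between their deviations, and TNS1 passed (0.42).

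Of 565 values of 49 probe sets of named genes under these alternatives, 524 kept direction and call, 18 lost the call, 8 gained it and 15 turned, each of the last from a change that was not called. With hybridization control centring those that turned were ITGAV (-0.34), ITGB3 (-0.18), ITGB4 (-0.40), PXN (-0.43), TNS1 (-0.0545), TNS4 (-0.24) and PTK2's second probe set (-0.35). The others were ITGAM without lysate replicate 2 (0.04) or IP replicate 1 (0.0486), ITGB2 without lysate replicate 1 (0.16) or IP replicate 1 (0.32), ITGB7 without lysate replicate 2 (0.19) or IP replicate 1 (0.13; ranges over single arrays left out -0.1999 to 0.0486, -0.5442 to 0.3204 and -0.2822 to 0.1862 for these 3 genes), and PXN without lysate replicate 1 (-0.10) or IP replicate 2 (-0.01). Hybridization control centring lowered every change by the same 0.48, so any rise smaller than that turned. Apart from this shift and from fewer probe sets or arrays tested, the cause was not tested. Low signals near the array medians limit what can be said of the leukocyte chains.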
